A study of Homo sapiens with 6 samples.

Results

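The TRIM family was examined in RNA-seq data of U-2 OS cells, a human osteosarcoma line, after knock-down of the RNA binding protein SFPQ. The cells, given as polyploid in the labels, received either a control siRNA (siControl) or an siRNA against SFPQ (siSFPQ), and no other treatment is given. The labels of all 6 libraries give 30 nM, in words that name only the siRNA against SFPQ. There were 3 biological replicates of each, so 6 libraries of polyadenylated RNA. Members are the protein-coding genes whose symbol is TRIM followed by a digit. By this rule 76 of the 60664 genes in the count table were included, and TRIM25 was left out by the rule. The interferon-induced members were taken as a core list of 9 genes known from textbook knowledge to respond to interferon (TRIM5, TRIM14, TRIM21, TRIM22, TRIM26, TRIM34, TRIM38, TRIM56 and TRIM69), and the 67 other members form the comparison group.

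TRIM proteins share an amino-terminal array of a RING finger, B-box zinc fingers and a coiled coil, and most act as ubiquitin ligases through the RING finger. The carboxy-terminal part differs between subfamilies and binds the substrate. The largest subfamily ends in a SPRY domain and holds most of the antiviral members, such as the capsid-binding restriction factor TRIM5. Others carry a PHD finger and a bromodomain and act on chromatin, or a COS box that binds microtubules. Several TRIM genes are themselves transcribed in response to interferon, through the interferon-stimulated response element (ISRE), and their products tune the sensing of viral RNA and of cytoplasmic DNA.

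Counts per library summed to between 43469321 and 47119203. SFPQ (chromosome 1, 35176378 to 35193446) fell from 21753 to 23139 counts in siControl to 3140 to 3863 counts in siSFPQ, a log2 fold change of -2.73 (standard error, SE, 0.0498). Of the 8 osteoblast and mesenchymal markers examined, RUNX2, COL1A1, SPARC, ALPL, SPP1 and VIM were above 1 CPM (counts scaled to a library total of 1000000), whereas COL1A2 and BGLAP were below it. Their sum was 5984 to 6313 CPM in siControl and 5475 to 5497 CPM in siSFPQ, with SPP1 (log2 fold change -1.33), COL1A1 (-0.35) and SPARC (-0.17) lower and VIM (0.32) and BGLAP (at most 6 counts in any library) higher. The 6 leukocyte markers examined summed to between 0.28 and 0.964 CPM per library, and CD3E, LYZ and CD68 had at most 3 counts in every library. CD14 had at most 9, and PTPRC was lower in siSFPQ, at 12, 14 and 5 counts against 26, 30 and 39 in siControl (log2 fold change -1.61). The 3 epithelial markers summed to 133 to 139 CPM in siControl and 324 to 349 CPM in siSFPQ, mostly through KRT18. A bulk library does not tell a change in every cell from a change in some of the cells.

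TRIM genes were measured at very different depths. Of the 76 members, 62 reached 10 counts over all libraries and were tested, 42 of them with a mean of at least 1 CPM. The other 14 had fewer than 10 counts, 6 of them 0 in every library, which still allows a level of up to 0.0676 CPM (3 counts in siSFPQ replicate 1). These low members include near-identical copies of the TRIM49 and TRIM64 groups on chromosome 11, between which reads may be split. Per kilobase of exon, TRIM28, the corepressor recruited by KRAB zinc finger proteins, was the highest member with a mean of 49.0 CPM per kb. It was followed by TRIM37, a ligase of centrosomes and peroxisomes, at 29.4 CPM per kb. TRIM44, TRIM58 and TRIM21 lay close together at 16.3, 15.9 and 15.7 CPM per kb. Of the 9 core interferon-induced members 8 had a mean of at least 1 CPM, and TRIM34 was the exception.

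In siSFPQ 25 TRIM genes were higher and 8 lower, with an adjusted p under 0.05 in edgeR's quasi-likelihood test over all 29022 genes tested. Among all genes tested 22.4% were higher and 22.1% lower, 44.6% in either direction. Libraries of the conditions did not overlap for 28 members with siSFPQ above (26.9% of all genes tested) and 7 with siSFPQ below (25.4%, and 52.3% in either direction). Since detection depends on depth, the 42 members with a mean of at least 1 CPM were set beside the 12958 protein-coding genes at or above that level. Of these members 21 (50%) were higher, against 31.3% of the protein-coding genes, and 7 (16.7%) were lower, against 36.5% (67.8% of the protein-coding genes in either direction). The libraries of the conditions did not overlap in 30 of the 42, siSFPQ above siControl in 23 (background 34%) and below in 7 (background 38.9%, and 72.8% in either direction). Most changes were small. The median log2 fold change of the 42 was 0.18, against -0.02 for the protein-coding genes, and the median size regardless of sign was 0.28, against 0.26. A log2 fold change over 1.5, the threshold of the study's methods, was passed by 4 members (background 5.54% of all genes tested) and one under -1.5 by 1 member, TRIM77 (background 4.77%). Of these 5 genes only TRIM29 had a mean above 1 CPM, where 1.34% of the protein-coding genes passed upwards and 4.33% downwards. At a threshold of 1, 7 tested members passed upwards (background 8.07%) and 2 downwards (background 7.1%).

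**Figure D1:**
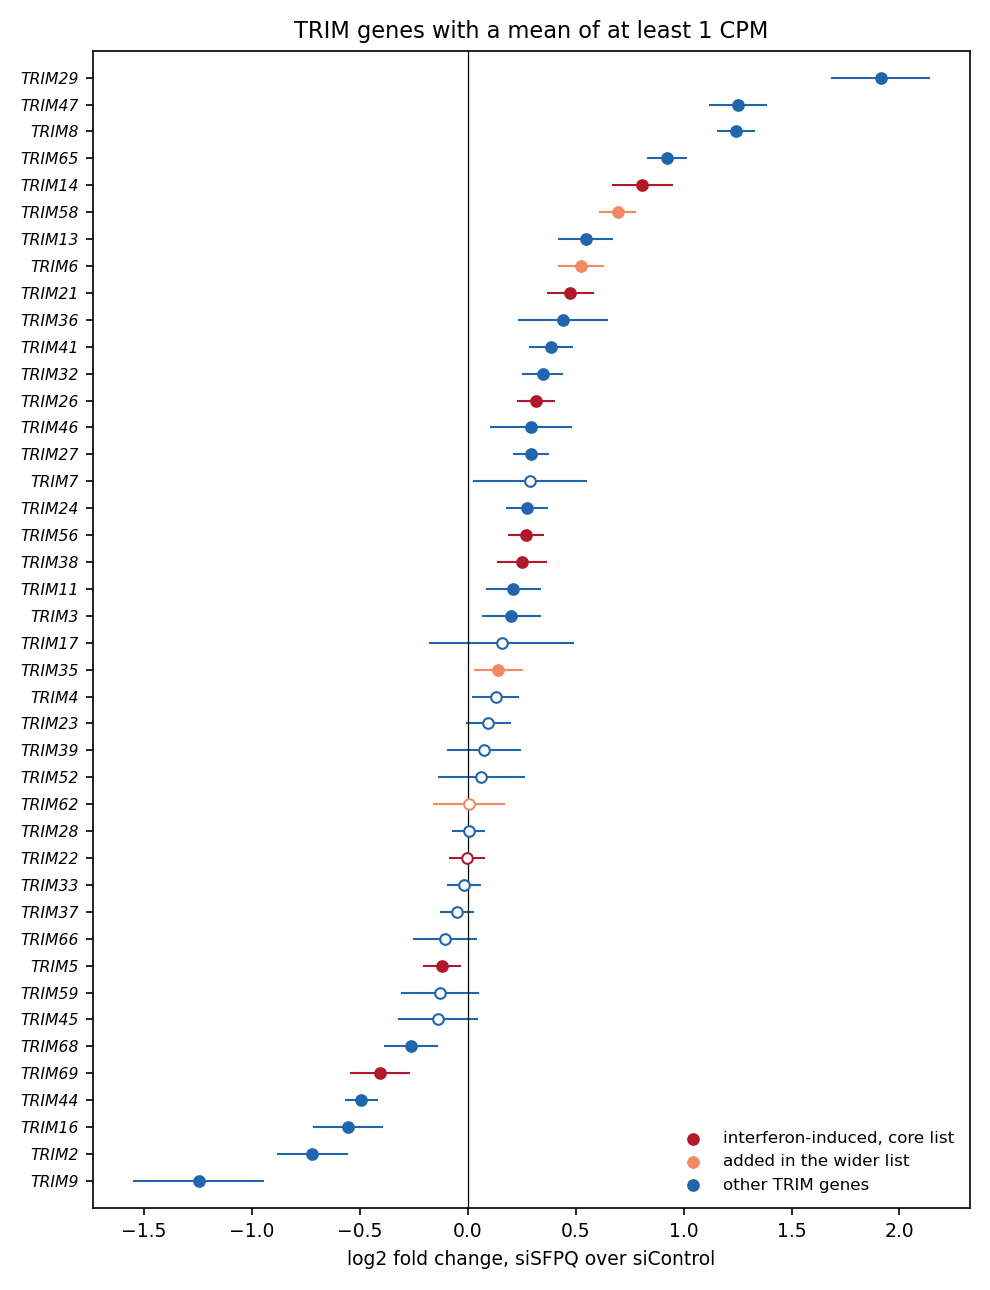
Log2 fold change (siSFPQ over siControl, horizontal axis) of the 42 TRIM genes with a mean of at least 1 CPM, with 95% confidence intervals from edgeR's quasi-likelihood fit. Filled points passed an adjusted p of 0.05, open points did not, and colours give the interferon list; the core list spans -0.41 to 0.81, inside the range of the other members from -1.25 to 1.91.

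The core interferon-induced members leaned upwards, though the members outside the list did as well, and the largest changes lay outside it. Of the 8 core members with a mean of at least 1 CPM, 5 (62.5%) were higher and 2 (25%) lower. Of the 34 others at that level, 16 (47.1%) were higher and 5 (14.7%) lower. Among all protein-coding genes at that level 31.3% were higher and 36.5% lower. Median log2 fold changes were 0.26 for the 8 and 0.15 for the 34. None of the core members passed a log2 fold change of 1, a size that TRIM8, TRIM29 and TRIM47 passed upwards and TRIM9 downwards among the 34. In the protein-coding genes at this level, 3.51% passed 1 upwards and 7.52% passed -1 downwards. No test of the difference between the lists was run.

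The promoters of the core members often carried the letters of the ISRE. The windows from 250 bases before to 50 bases after the transcription start, as given by RefSeq for GRCh38.p14, were searched on both strands for the letters of the ISRE core, GAAA followed by any 2 bases and GAAA again (TTTC, any 2 bases and TTTC on the other strand). A window was matched by symbol for 61 of the 76 members, 8 of them in the core list. The letters were found in 6 of these 8 windows, in 4 of the 53 other members (7.55%) and in 3.65% of all 27305 windows. Both windows without them were those of TRIM38 and TRIM56; for TRIM22 no window was matched. The stretches around the matches are shown because the members that carry them moved in different directions. Each is written on the strand of the gene, with the matching letters in capitals.
TRIM14 (chr9:98119199-98119288, minus strand): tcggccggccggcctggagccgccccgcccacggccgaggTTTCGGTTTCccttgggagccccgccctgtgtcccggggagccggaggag
TRIM21 (chr11:4393653-4393725, minus strand): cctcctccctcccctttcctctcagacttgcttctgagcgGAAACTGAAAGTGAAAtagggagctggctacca
TRIM26 (chr6:30213545-30213640, minus strand): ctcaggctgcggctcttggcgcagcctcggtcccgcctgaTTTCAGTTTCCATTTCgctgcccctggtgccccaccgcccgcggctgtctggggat
TRIM5 (chr11:5685052-5685141, minus strand): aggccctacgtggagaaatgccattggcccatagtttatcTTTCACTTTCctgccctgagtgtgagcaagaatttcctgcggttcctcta
TRIM69 (chr15:44736426-44736515, plus strand): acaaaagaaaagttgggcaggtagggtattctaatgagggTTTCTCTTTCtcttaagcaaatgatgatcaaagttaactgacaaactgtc
TRIM34 (chr11:5624871-5624960, plus strand): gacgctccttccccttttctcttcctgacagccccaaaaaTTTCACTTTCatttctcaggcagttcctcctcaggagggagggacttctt

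In TRIM21 and TRIM26 a pair of overlapping matches forms a run of 16 bases. The match began 26 bases before the start in TRIM14, 27 in TRIM5, 62 in TRIM69, 90 in TRIM34 and 194 in TRIM26, and 17 bases after it in TRIM21. Of these genes, TRIM14, TRIM21 and TRIM26 rose and TRIM5 and TRIM69 fell. Outside the core list the letters were found in the windows of TRIM2, TRIM16, TRIM44 and TRIM64C, of which TRIM2, TRIM16 and TRIM44 fell and TRIM64C was not tested. Of the 31 members at or above 1 CPM with a window, the letters were in 3 of the 14 that were higher and in 5 of the 17 that were not. A match is a stretch of letters and not a measured binding site.

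TRIM14, a member without a RING finger that serves as an adaptor in antiviral signalling at mitochondria, showed the largest rise of the core list. Its counts were 732, 928 and 762 in siControl, in the order of replicate number, and 1396, 1447 and 1413 in siSFPQ. The siSFPQ libraries lay close together and all above siControl, where replicate 2 stood above the other pair. In normalised read counts it rose from 808 ± 105 to 1416 ± 23.1 (SD, n = 3 each), or by 0.81 on the log2 scale (SE 0.069, adjusted p = 7.17e-12, edgeR's quasi-likelihood test). Part of its exons (7.7%) overlaps NANS on the opposite strand, which fell by 0.58 on the log2 scale, and how the counting treated strand is not given in the sources used here.

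TRIM21, the cytosolic receptor for antibody-coated particles, followed with 1154, 1188 and 1150 counts in siControl and 1614, 1655 and 1602 in siSFPQ. The replicates of each condition were nearly equal and the conditions stood apart. Its log2 fold change was 0.48 (SE 0.0539, adjusted p = 4.39e-09, edgeR). The remaining risers of the core list changed less. TRIM26, a ligase acting on IRF3, had 2468, 2397 and 2355 counts in siControl and 2963, 3046 and 3003 in siSFPQ, a 1.24-fold rise (adjusted p = 2.24e-07, edgeR). TRIM56, a ligase of the cGAS and STING pathway, had 4087, 4487 and 4200 counts in siControl and 5040, 5251 and 5144 in siSFPQ, a 1.2-fold rise (adjusted p = 1.39e-06, edgeR). TRIM38, which restrains signalling from Toll-like receptors and TNF, had 1093, 1068 and 1074 counts in siControl and 1206, 1340 and 1322 in siSFPQ, a 1.19-fold rise (adjusted p = 0.000432, edgeR). In each of these genes every siSFPQ library lay above every siControl library.

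**Figure D2:**
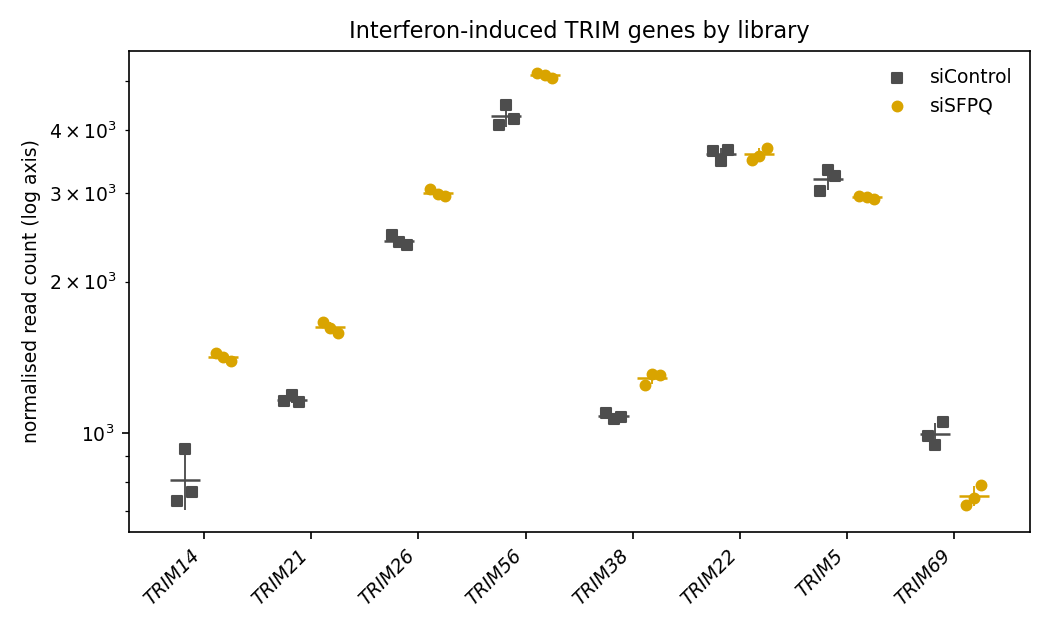
Normalised read counts (log axis) of the 8 core interferon-induced TRIM genes with a mean of at least 1 CPM, one point per library, with bars for the mean and lines for the SD of the 3 replicates in siControl (squares) and siSFPQ (circles). The siSFPQ libraries lie above siControl in 5 genes, overlap in TRIM22 and lie below in TRIM5 and TRIM69.

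The remaining core members were not called higher. TRIM22, a restriction factor of influenza virus and HIV and a neighbour of TRIM5, had 3632, 3476 and 3633 counts in siControl and 3385, 3633 and 3737 in siSFPQ. The conditions overlapped, and the log2 fold change had a 95% interval from -0.09 to 0.08 (SE 0.0415), so that a change as large as that of TRIM38 lies outside it. TRIM5 had 3015, 3331 and 3231 counts in siControl and 2870, 3014 and 2962 in siSFPQ. After normalisation the siSFPQ libraries, at 2922 to 2960, lay just below siControl, at 3021 to 3331, and the log2 fold change was -0.12 (SE 0.0437, adjusted p = 0.0255, edgeR). This call was fragile. It was lost when library size alone was used for scaling (log2 fold change -0.06, adjusted p = 0.301), and also without siControl replicate 2 (-0.09, adjusted p = 0.139), siControl replicate 3 (-0.11, adjusted p = 0.0616), siSFPQ replicate 1 (-0.11, adjusted p = 0.092) or siSFPQ replicate 3 (-0.10, adjusted p = 0.0924).

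TRIM69, an interferon-induced member that restricts vesicular stomatitis virus and assembles on microtubules, fell more clearly. It had 986, 948 and 1047 counts in siControl and 698, 759 and 800 in siSFPQ, with no overlap. Its log2 fold change of -0.41 (SE 0.0677, adjusted p = 6.04e-06, edgeR) kept its direction and its call under every alternative run. TRIM34 had 0, 3 and 2 counts in siControl and 2, 2 and 3 in siSFPQ, too few for a comparison. In the annotation 83.6% of its exon bases also belong to the read-through gene TRIM6-TRIM34, which had 0 counts in every library, and how reads shared by both were counted is not given in the sources used here.

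A further 5 members are reported to respond to interferon in some cells and were described apart from the core list. With them, 8 of 14 members were higher and 2 lower, beside 22.4% and 22.1% of all genes tested. All these calls fell in the 12 members with a mean of at least 1 CPM. Of the protein-coding genes at that level 31.3% were higher and 36.5% lower. TRIM58, a ligase known from maturing red cells, rose from 2908, 2924 and 2751 counts to 4528, 4588 and 4826. Its log2 fold change of 0.70 (SE 0.042) placed it between TRIM14 and TRIM21. TRIM6, a ligase whose ubiquitin chains activate IKBKE in interferon signalling and which sits beside TRIM34 on chromosome 11, rose from 1276, 1236 and 1275 counts to 1815, 1781 and 1871, a log2 fold change of 0.53. TRIM62, a ligase of CARD9, was close to its siControl level, at 531, 517 and 497 counts against 532, 506 and 518, with an interval of its log2 fold change from -0.16 to 0.17. TRIM35 had 1202, 1271 and 1279 counts in siControl and 1301, 1403 and 1453 in siSFPQ, a log2 fold change of 0.14 (adjusted p = 0.0367, edgeR). The adjusted p of TRIM35 exceeded 0.05 without siControl replicate 1 (0.112) or 2 (0.0501), without siSFPQ replicate 2 (0.0933) or 3 (0.12), with DESeq2 (0.0586) and without the count filter (0.0729). TRIM31 had only 1, 3 and 7 against 13, 3 and 7 counts and was not called.

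In the annotation the TRIM6, TRIM34, TRIM5 and TRIM22 genes form one stretch of chromosome 11 from 5596109 to 5938619. Across it TRIM6 rose, TRIM22 was not called and TRIM5 was slightly lower. TRIM21 and TRIM68, which lie on the same chromosome at 4384897 to 4393702 and at 4598672 to 4608231, also differed: TRIM21 rose and TRIM68 fell.

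Of the interferon signalling genes listed beside the family, 9 of 20 were higher and 2 lower, beside 22.4% and 22.1% of all genes tested. At a mean of at least 1 CPM, 8 of 17 were higher and 2 lower, beside 31.3% and 36.5% of the protein-coding genes at that level. STING1 rose by 1.64 and ISG15 by 1.36 on the log2 scale. STAT2 and IRF9, which act together at the ISRE, had log2 fold changes of 0.03 and 0.31, and neither was called. IRF1 rose by 0.99. Interferon transcripts themselves were not part of the list.

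Among the TRIM proteins that carry other symbols, PML, the scaffold of the nuclear bodies that hold DAXX, is also interferon-induced. It rose slightly, from 2096, 2185 and 2142 counts to 2316, 2465 and 2376, a log2 fold change of 0.15 (SE 0.0455, adjusted p = 0.00666, edgeR). MEFV, which encodes pyrin, and TRIML1 had at most 5 counts in any library. MID1 (chromosome X, 10445310 to 10833654), a microtubule-bound ligase mutated in Opitz syndrome, fell far more than any TRIM gene above 1 CPM. It had 140, 141 and 125 counts in siControl and 5, 11 and 6 in siSFPQ, a log2 fold change of -4.19 (SE 0.272, adjusted p = 7.52e-15, edgeR). Its close relative MID2 had 311, 300 and 315 counts against 258, 311 and 293, with a log2 fold change of -0.11 that was not called. TRIML2 had 486, 369 and 422 counts against 474, 488 and 538 and passed narrowly (log2 fold change 0.23, adjusted p = 0.0476, edgeR) while its conditions overlapped. Without siControl replicate 2 its log2 fold change was 0.13 (adjusted p = 0.271), and the call was also lost without siControl replicate 3 (0.0929) and without siSFPQ replicate 1 (0.0797), 2 (0.0796) or 3 (0.188), where the values are adjusted p. It was lost as well with RLE size factors (0.0505), without the count filter (0.0515) and with DESeq2 (0.101).

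Outside the interferon lists and at a mean of at least 1 CPM, TRIM29, TRIM47, TRIM8 and TRIM65 rose most. TRIM29, a RING-less member of stratified epithelia that acts on STING, had 129, 163 and 129 counts in siControl and 536, 485 and 569 in siSFPQ. Every siSFPQ library lay between 485 and 569, well above siControl. The log2 fold change was 1.91 (SE 0.112, adjusted p = 5.02e-16, edgeR), the largest of the 42 members, although its level per length was low, at 0.306 CPM per kb in siControl and 1.15 in siSFPQ. The epithelial marker sum given above moved in the same direction, with KRT18 and CDH1 higher and EPCAM not called, and its part in this result was not tested.

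TRIM8, a ligase that promotes NF-kB signalling downstream of TNF and binds SOCS1, combined a high level with a large rise. It had 2778, 2742 and 2587 counts in siControl and 6502, 6313 and 6405 in siSFPQ. Its level per length rose from 8.47 to 20.0 CPM per kb, which placed it next in the family in siSFPQ after TRIM28 and TRIM37. The log2 fold change was 1.24 (SE 0.0428, adjusted p = 2.35e-22, edgeR). The divergent transcript TRIM8-DT, whose exons overlap 19.3% of those of TRIM8 on the other strand in the annotation, rose by 0.68 on the log2 scale.

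TRIM47 and TRIM65 lie side by side on the minus strand of chromosome 17, with 1753 bases between them. TRIM47 (75874164 to 75878581) had 719, 644 and 747 counts in siControl and 1674, 1585 and 1786 in siSFPQ, a log2 fold change of 1.25 (SE 0.0654, adjusted p = 2.17e-17, edgeR). TRIM65 (75880335 to 75896951), a ligase for the RNA sensor encoded by IFIH1, had 1776, 1807 and 1922 counts in siControl and 3346, 3569 and 3551 in siSFPQ, a log2 fold change of 0.92 (SE 0.0451, adjusted p = 3.66e-18, edgeR). Both genes thus rose together with no overlap between conditions. Of the exon bases of TRIM47, 51.6% are shared with ENSG00000267801, a long noncoding RNA on the opposite strand. That RNA had 6, 16 and 15 counts in siControl and 88, 39 and 54 in siSFPQ, small against those of TRIM47.

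TRIM13, which is anchored in the endoplasmic reticulum and serves protein degradation there, rose from 965, 824 and 910 counts to 1307, 1328 and 1320, a log2 fold change of 0.55 (SE 0.063). Its exons overlap those of DLEU2 on the other strand, which fell by 1.04 on the log2 scale.

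**Figure D3:**
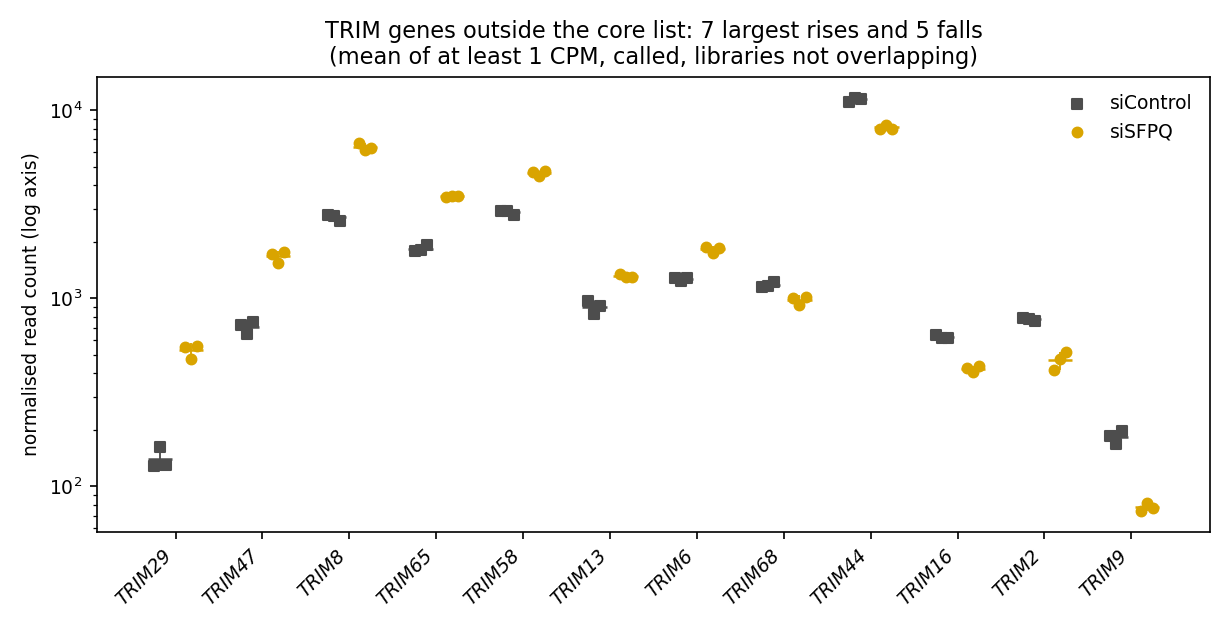
Normalised read counts (log axis) of TRIM genes outside the core list with a mean of at least 1 CPM, the 7 largest rises and all 5 falls that were called and did not overlap, one point per library, with bars for the mean and lines for the SD of 3 replicates in siControl (squares) and siSFPQ (circles). TRIM29, TRIM47, TRIM8, TRIM65, TRIM58, TRIM13 and TRIM6 were higher and TRIM68, TRIM44, TRIM16, TRIM2 and TRIM9 lower in siSFPQ, with no overlap in any of them.

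Falls were fewer. TRIM9, a neuronal member that acts in netrin-guided axon branching, had 186, 168 and 197 counts in siControl and 72, 83 and 78 in siSFPQ. The conditions were well separated, with a log2 fold change of -1.25 (SE 0.149, adjusted p = 1.40e-08, edgeR), the largest fall of the 42 members. TRIM2, a ligase for the neurofilament light chain, fell from 783, 778 and 752 counts to 402, 485 and 524, a log2 fold change of -0.72. TRIM16, which takes part in the autophagy of damaged lysosomes, fell from 634, 614 and 613 to 411, 417 and 442 counts, a log2 fold change of -0.56. In TRIM2 the siSFPQ libraries were more spread than the siControl libraries, while in TRIM16 both conditions were tight. TRIM44, the third most abundant member per length, fell from 11084, 11616 and 11497 to 7730, 8578 and 8077 counts, a log2 fold change of -0.49 (SE 0.0374, adjusted p = 4.00e-13, edgeR). TRIM44 has a ubiquitin-specific protease type zinc finger in place of the RING finger. TRIM68, a coactivator of the androgen receptor, fell from 1143, 1162 and 1226 to 979, 938 and 1034 counts, a log2 fold change of -0.26 (adjusted p = 0.000676, edgeR).

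The chromatin-bound members with a PHD finger and a bromodomain stayed near their siControl levels. TRIM28 had 9707, 9620 and 9561 counts in siControl and 9579, 9508 and 9963 in siSFPQ. Its interval from -0.07 to 0.08 on the log2 scale was among the narrowest in the family. TRIM33, a regulator of SMAD signalling, had 4909, 5148 and 5235 counts against 4935, 5238 and 4987, with an interval from -0.10 to 0.06. TRIM66 had 776, 807 and 725 counts against 742, 725 and 684 and was not called either. TRIM24, a reader of histone H3 and regulator of p53, was the exception, with a rise from 1912, 1959 and 1814 to 2247, 2355 and 2305 counts and a log2 fold change of 0.28 (SE 0.0475, adjusted p = 1.01e-05, edgeR). TRIM37, the second most abundant member per length, was not called, with an interval from -0.13 to 0.03.

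By carboxy-terminal domain, the SPRY subfamily held 43 members, of which 35 were tested, 14 were higher and 5 lower (22.4% and 22.1% of all genes tested). Of its 22 members with a mean of at least 1 CPM, 12 were higher and 4 lower (31.3% and 36.5% of the protein-coding genes at that level), with a median log2 fold change of 0.23. The members with no further domain, which include TRIM8, TRIM29, TRIM44 and TRIM56, were higher in 4 of 8 tested and lower in 1 (22.4% and 22.1% of all genes tested). Of the 5 with a mean of at least 1 CPM, 3 were higher and 1 lower (31.3% and 36.5% of the protein-coding genes at that level). In the COS box group TRIM36 and TRIM46 rose, by 0.44 and 0.29 on the log2 scale, as did TRIM54 at a low level, and TRIM9 fell. TRIM46, which bundles microtubules in the axon, lost its call without siSFPQ replicate 2 (log2 fold change 0.24, adjusted p = 0.0687, edgeR). Members of one domain group therefore moved in both directions. In the NHL repeat group, TRIM32, a ligase mutated in limb-girdle muscular dystrophy, rose by 0.35 and TRIM3 by 0.20 while TRIM2 fell. TRIM3 had overlapping conditions and lost its call without siControl replicate 2 (0.12, adjusted p = 0.159) and without siSFPQ replicate 1 (0.17, adjusted p = 0.0927) or 2 (0.19, adjusted p = 0.0556). The single tested members of the MATH, ARF and filamin groups, TRIM37, TRIM23 and TRIM45, were not called.

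**Figure D4:**
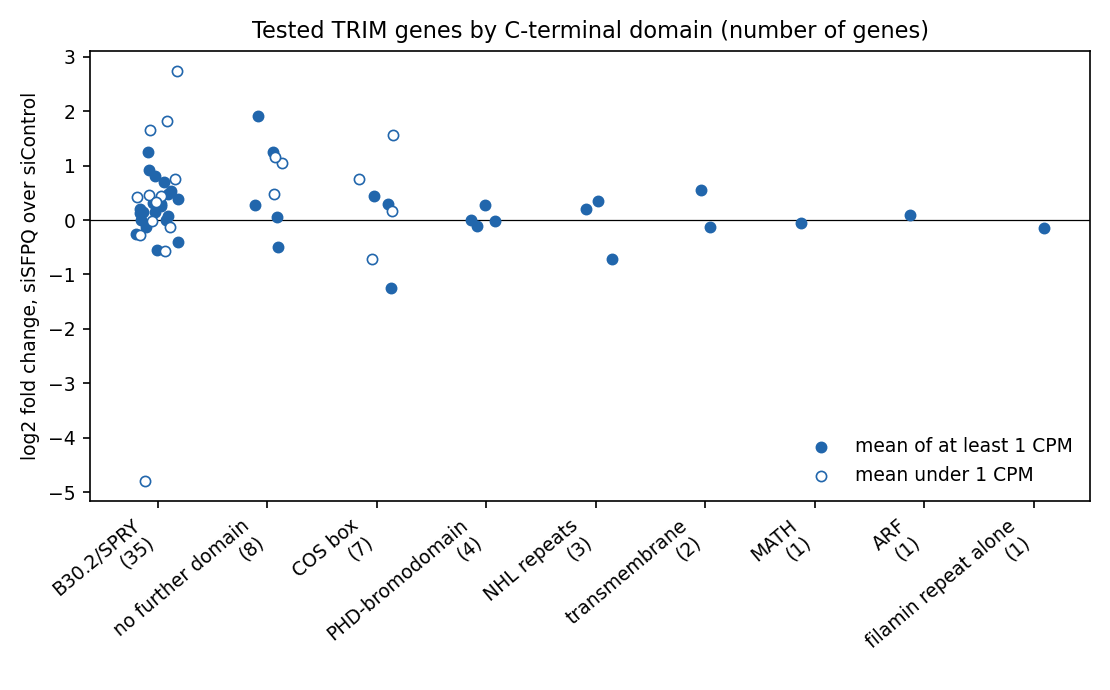
Log2 fold change (siSFPQ over siControl, vertical axis) of the 62 tested TRIM genes by carboxy-terminal domain, with the number of genes in parentheses; filled points have a mean of at least 1 CPM and open points a lower one. The PHD-bromodomain genes lie between -0.11 and 0.28, and the genes beyond 1.5 in either direction, TRIM29 apart, are open points.

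Calls among the 20 tested members under 1 CPM rest on few reads. Of them 4 were higher and 1 lower, where 22.4% and 22.1% of all genes tested were. All genes tested include those at higher levels, so these shares are not matched for depth. TRIM72, which repairs the muscle cell membrane, had 6, 2 and 4 counts in siControl and 33, 23 and 26 in siSFPQ, with no overlap and a log2 fold change of 2.73 (SE 0.508, adjusted p = 3.27e-05, edgeR). TRIM54, a muscle RING finger protein, had 19, 12 and 17 counts against 50, 41 and 51, a log2 fold change of 1.55. Its exons overlap those of UCN on the other strand in the annotation. Both kept their call in every alternative, whereas TRIM43, TRIM74 and TRIM77 did not. TRIM74, a near-identical copy of TRIM73, had 11, 9 and 17 counts against 21, 26 and 36 and lost its call without siControl replicate 2 (adjusted p = 0.0631) and without siSFPQ replicate 3 (adjusted p = 0.137). TRIM43, which has the near-identical copy TRIM43B, had 9, 1 and 2 counts against 11, 17 and 11, and its adjusted p ranged up to 0.203 without single libraries. TRIM77 had 4, 6 and 0 counts in siControl and 0 in each siSFPQ library, close to the 3 counts taken as a floor, so no fold is given. Its adjusted p was 0.034 (edgeR) and rose to between 0.087 and 0.094 with any one of the siSFPQ libraries left out and to 0.0795 with the replicate number as a block.

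Longer TRIM genes tended to have lower log2 fold changes, as did protein-coding genes at large. Over the 42 members with a mean of at least 1 CPM, Spearman's rho between the genomic span and the log2 fold change was -0.39, against -0.30 over the 12958 protein-coding genes. The points of this correlation are genes of the same 6 libraries and are not independent replicates. TRIM2, TRIM44 and TRIM9, which fell, span 187157, 155233 and 120800 bases, and MID1, which is not among the 42, spans 388345. In the annotation TRIM5 spans 275425 bases, more than TRIM2, and its log2 fold change was -0.12. That span reaches 5938619, far upstream of the RefSeq start used for its promoter window (5685025 to 5685324, minus strand). The length of TRIM5 therefore depends on the start taken, and it is not a clear exception. TRIM24, TRIM37 and TRIM33, with similar spans of 129738, 124284 and 118414 bases, were not called lower.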

How the data were processed

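RNA was sequenced from both ends by the study with a stranded mRNA kit. The authors aligned reads with STAR 2.7.9a to GRCh38 and deposited unnormalised counts per Ensembl gene, but how the counting used strand is not given in the sources used here. Condition and replicate number came from the sample titles. Names and positions came from GENCODE release 44 on GRCh38. The members, lists and tests were chosen with earlier results of these data known. Genes reaching 10 counts over all libraries were fitted in edgeR 4.0.16 with R 4.3.3 (TMM, quasi-likelihood test, no covariate), and p-values were adjusted by Benjamini-Hochberg over 29022 genes. The SE is the log2 fold change divided by the root of the F statistic. The study used DESeq2 and a log2 fold change of 1.5; DESeq2 1.42.0 was run as an alternative, besides other count filters, scalings and thresholds, the replicate block and each library left out. The fits were tested on simulated counts in which 200 genes changed by 1 on the log2 scale, up or down. Smaller or more widespread changes, as in these data, were not simulated. Normalised read counts are counts over effective library size, scaled to the geometric mean. Levels per length are CPM per kb of merged exons. Chi-square per degree of freedom between replicates was 3.77 to 5.49, so no library repeated another. Named were the interferon, PHD-bromodomain and other-symbol lists, the 5 highest members per length, and, at or above 1 CPM, called members beyond 1 on the log2 scale and the 8 largest non-overlapping rises and falls. Others were named after their values were seen, and a few genes of the lists are not reported here. The limit of 3 counts covers counting error only.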

Additional observations from a re-analysis of the deposited data

How the results depend on the processing

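Of the 33 called members, 26 kept their call in every alternative fit that tested them. With single libraries left out, members higher and lower numbered 21 to 25 and 6 to 8, and those past 1.5 upwards and downwards 2 to 4 (2 without siControl replicate 2) and 0 to 1. Downwards there were 0 with filterByExpr or DESeq2, and a threshold of 1 gave 7 and 2. With the replicate block 26 members were higher and 7 lower, and 0 passed -1.5; it moved no other count by over 1.5 times. Same-numbered libraries did not all deviate together (correlations -0.00327, 0.0881 and 0.0547), and not every library correlated best with its own number. The core list had 1 lower member with library size alone and 1 to 2 with libraries left out, and the wider list had 8 higher. Library size alone, which moved the median of all genes tested from 0.02 to 0.08, gave medians of 0.33 (core) and 0.28 (others). The median of the others was 0.28 with filterByExpr, 0.15 at or above 1 CPM and 0.13 to 0.28 with libraries left out, where the core median was 0.24 to 0.29. Among the named genes, signs turned in those near 0 or with few counts: TRIM22 (0.00110 with filterByExpr, 0.0597 with library size alone, 0.00702 in protein-coding genes, -0.0256 to 0.0279 with libraries left out), TRIM28 (-0.00670 without a count filter, -0.000805 to 0.0157), TRIM33 (0.0463 with library size alone, -0.0438 to 0.0108), TRIM37 (0.0155 with library size alone), TRIM62 (-0.00426 without a filter, -0.0221 to 0.0293), TRIM34 (-0.10 to 0.59), MEFV (-1.03 to 0.10) and TRIML1 (-0.56 to 0.29). The cause was not tested.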

Other observations

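Around the adjacent pair TRIM47 and TRIM65, some other protein-coding genes within 100 kb were read for comparison, chosen after the values of the pair were seen. UNC13D rose by 1.60, WBP2 by 0.48 and MRPL38 by 0.72 on the log2 scale, each with an adjusted p under 0.05 in edgeR's quasi-likelihood test. FBF1 rose by 0.25. H3-3B and UNK, at the far side of UNC13D, had log2 fold changes of 0.05 and 0.07 and were not called.

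TRIM41, TRIM27 and TRIM11, members of the SPRY subfamily outside the interferon lists, rose modestly, by 0.38, 0.29 and 0.21 on the log2 scale, with no overlap between conditions. TRIM4 and TRIM7, of the same subfamily, lay above siControl in every siSFPQ library but were not called, with adjusted p of 0.0502 and 0.0697 from edgeR.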
